A study of Mus musculus with 9 samples.

Results

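Kdm2a and Jmjd1c were the histone demethylase genes whose 5′ untranslated regions (UTRs) were probed with dimethyl sulfate (DMS) in mouse E14 embryonic stem cells. Their amplicons were taken by RefSeq transcript name: 3 of Kdm2a and 4 of Jmjd1c, 7 of the 161 amplicons in the deposited table. Together they held 1405 of 32967 nucleotide readings, covering 523 positions of Kdm2a and 561 of Jmjd1c, and all 687 of their A and C readings (297 and 390) were tested. The rule uses names, not measured values. Of 27 histone demethylase genes listed by symbol, Kdm2a and Jmjd1c were those found in the table.

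The study asked how conserved 5′ UTRs fold in cells and outside them. Amplicons of 250 nt were placed across 100 such regions. All 9 samples were total RNA of the E14TG2a line, in 3 groups of 3 samples that the labels' protocols describe as independent. For ATP depletion, cells spent 10 min in glucose-free medium containing 2-deoxyglucose and sodium azide (10 mM of each), both of which stayed in the later media. The untreated cells skipped that step, and cells of both groups were exposed to DMS at 1.6% for 6 min, buffered with bicine at 250 mM and kept at 37 °C. The third group is labelled as refolded in vitro, and how its RNA was refolded and treated with DMS is not given in the sources used here. Samples without DMS were not analysed here, which leaves the mutation background of a nucleotide unknown. Amplicons carry no marker transcripts, so the labelled cell type was not checked.

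Histone demethylases remove methyl groups from histone lysines. Kdm2a binds unmethylated CpG islands through its CXXC zinc finger and carries a JmjC domain, the catalytic fold of most such enzymes. Jmjd1c is a JmjC protein of the Kdm3 family, studied in stem cells and in blood. The 5′ UTR lies before the coding sequence and is scanned by the small ribosomal subunit, so stable folds and upstream AUG triplets in it can limit translation. DMS methylates the base-pairing face of A and C where it is free, and reverse transcription turns these methylated bases into mutations of the cDNA. ATP drives helicases that unwind RNA in cells, whereas RNA refolded after extraction is free of cell proteins.

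Called nucleotides that lay near each other were grouped as clusters. These are printed here as the deposited table gives the bases, with T for U, 5′ to 3′ along the transcript. Whether calls lie closer together than chance would place them was not tested. A cluster is a run of at least 2 called A or C no more than 15 nt apart in 1 amplicon, with 2 flanking bases on each side where read. Stretches were kept to at most 30 nt, and this limit parted Kdm2a 290 to 316 from 327 to 339. Capitals mark nucleotides that differed between refolded RNA and at least 1 in-cell group. Of 16 such runs, 9 in Kdm2a and 7 in Jmjd1c, those that hold the nucleotides described below are shown, with 1 exception. A run at 358 to 373 in Jmjd1c amplicon 292 to 542 is not printed. It lies within the run at 351 to 375, printed from amplicon 154 to 404, and its capitals differ in part. Positions follow the table's own numbering along the transcript, and whether it begins at 0 or 1 is not stated. Genome coordinates were not analysed here, and all amplicons were designed in 5′ UTRs, per the labels' protocols.
Kdm2a 199 to 216: tcCcccggAgtccctCct
Kdm2a 290 to 316: caAaggcagCCgaaggcccCCggtCag
Kdm2a 327 to 339: tgCtccCgCcCtc
Kdm2a 382 to 400: ggCgcggggagcgtcggCc
Kdm2a 645 to 664: tgAcccttctctggataCtg
Kdm2a 681 to 686: taCCga
Kdm2a 728 to 745: taCttCtctcttggaCaa
Jmjd1c 351 to 375: caAtgacggCgctgcaagtgAgCtc
Jmjd1c 453 to 468: atActgctCaCgAAca
Jmjd1c 592 to 602: acCtagttCta
Jmjd1c 714 to 734: acCcacagctgcaCgcggAag
Most capitals of the Kdm2a stretches were C, whereas those of Jmjd1c 453 to 468 mixed A and C.

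The 3 Kdm2a amplicons were unlike each other in base composition. Amplicon 169 to 419 (positions 187 to 400 read) was 78.5% G and C, the 5th highest share of 161 amplicons, and held 81 C but 21 A. Its predicted minimum free energy of -62.9 kcal/mol per 100 nt was the most negative of the 161. Amplicons 538 to 788 and 638 to 888 overlapped and were 45.0% and 41.8% G and C, against a median of 57.9% over all amplicons. Jmjd1c amplicons ran from 38.3% (292 to 542) to 50.2% (154 to 404), and their predicted folds were weaker than or near the median of -30.8 kcal/mol per 100 nt.

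Depth also differed. The recovered mutation counts per sample were 5743965 to 12616275 over all amplicons. Kdm2a 538 to 788 and 638 to 888 held 27058 to 133411 counts per library, and Jmjd1c 154 to 404 held 29005 to 191486. Kdm2a 169 to 419 was the shallowest of the 7, with 3585, 1976 and 2062 counts in the refolded samples and 3685 to 14366 in the in-cell samples. The other Jmjd1c amplicons lay between, with lowest libraries of 3387 (292 to 542), 3251 (557 to 807) and 4415 (591 to 841). Counts from amplified cDNA are not independent molecules, so counting intervals given here cover counting error only. Each value is a reactivity in CPM, counts per 1000000 counts of that amplicon and sample. A count of 0 stands as 0.5 counts, as in the deposited values. CPM gives the share of an amplicon's signal at a nucleotide, so a rise or fall common to the whole amplicon cannot be seen.

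A read higher than C in both genes, by the medians. The median A of Kdm2a was 8570 ± 625 CPM in untreated cells, 8417 ± 560 in ATP-depleted cells and 9272 ± 398 in refolded RNA (SD, n = 3 each). The median C was 4743 ± 298, 4660 ± 180 and 3808 ± 199 CPM in the same order, and every refolded sample was below every in-cell sample. In Jmjd1c the median A was 8524 ± 678, 8577 ± 543 and 8996 ± 305 CPM, and the median C was 4912 ± 199, 4342 ± 87.4 and 4839 ± 172 CPM (SD, n = 3 each). The Jmjd1c medians of C overlapped between refolded RNA and untreated cells, and the difference between the genes was not tested. Over all amplicons the median C was 4829 CPM in untreated cells and 4114 CPM in refolded RNA.

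Single nucleotides of Kdm2a differed between refolded RNA and cells, and falls at C were the most frequent kind, at a share close to that of the table. Both comparisons use the same refolded samples. In limma's test on log2(CPM + 3197), with Benjamini-Hochberg adjustment over the 16178 A and C readings of the table, 29 of 297 Kdm2a readings (9.76%) differed from untreated cells. The share over the whole table was 16.3%. Of the 29, 10 were higher and 19 lower in refolded RNA, where 8.08% and 8.18% of all readings were higher and lower. Dividing each amplicon by its mean turned the table's split into 870 higher and 1698 lower, and that of Kdm2a into 8 and 22. Among the falls, 18 were C (of 162 tested) and 1 was A, and the rises were 5 A and 5 C. Over all amplicons, 1047 of 9342 C were lower and 626 higher. Against ATP-depleted cells 24 Kdm2a readings differed (8.08%, against 14.9% of the table), 10 higher and 14 lower, with 8.31% and 6.56% of the table in these directions. With each amplicon divided by its own mean this split became 5 higher and 24 lower. In every called reading the 3 refolded samples did not overlap the 3 samples they were compared with. The same held for all 2631 and 2406 readings called over the table, so it is not particular to Kdm2a. Without ATP-depleted replicate 2 the second count fell to 9, and without ATP-depleted replicates 1 and 3 to 15 and 13. The first count was 16, 17 and 16 when untreated replicate 1, 2 or 3 was left out.

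The calls against untreated cells were densest in the GC-rich amplicon. Against untreated cells, 15 of 102 readings changed in Kdm2a 169 to 419 (14.7%), 8 of 96 in 538 to 788 (8.33%) and 6 of 99 in 638 to 888 (6.06%). Against ATP-depleted cells the counts were 11 (10.8%), 10 (10.4%) and 3 (3.03%), where the median amplicon had 12.1% called. By the share called against untreated cells, these amplicons ranked 74, 107 and 134 of 161, where the median amplicon had 13.8% called. The densest Kdm2a amplicon was therefore close to the median of the table.

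On the log2(CPM + 3197) scale, the largest rise from untreated cells was at C384, in the GC-rich stretch at positions 382 to 400. C384 read 24540, 16729 and 23424 CPM in untreated cells, 19619, 33048 and 19255 in ATP-depleted cells and 101016, 73251 and 82480 in refolded RNA. The lowest refolded sample was above the highest in-cell sample. The mean rose from 21564 ± 4225 CPM in untreated cells to 85582 ± 14140 in refolded RNA (SD, n = 3 each). On the log2(CPM + 3197) scale, which understates changes of low readings, the change was 1.85 (SE 0.22, limma adjusted p = 0.00217) against untreated cells and 1.73 (SE 0.22, adjusted p = 0.00273) against ATP-depleted cells. C384 also had the highest mean CPM of any Kdm2a A or C over the 9 samples. The structure predicted from sequence alone paired it.

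C399, the next to last position read, behaved similarly. It read 8154, 8774 and 11272 CPM in untreated cells, 5343, 7645 and 4200 in ATP-depleted cells and 41966, 52822 and 27980 in refolded RNA, with no overlap. The change was 1.78 (SE 0.23, limma adjusted p = 0.00267) and 2.28 (SE 0.23, adjusted p = 0.00104) against the 2 in-cell groups. Because it lies beside the primer end of the amplicon, it drops out when 25 positions are left off each end, and C384 drops out with it.

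Smaller rises were called at C214 and C329, both paired in the predicted fold. C214 averaged 2010 CPM in untreated cells, 747 in ATP-depleted cells and 8722 in refolded RNA. C329 averaged 1417, 1425 and 7554 CPM. These means rest on few counts: 14, 24 and 14 mutations at C214 and 14, 23 and 8 at C329 in the refolded libraries. The change at C329 was 1.12 against either in-cell group (SE 0.30; limma adjusted p = 0.0385 and 0.0403), and that call was lost under 10 of 18 alternative settings in each comparison.

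A cluster of C between 299 and 314 lost signal on refolding. C314 read 11401, 13921 and 11912 CPM in untreated cells, 12353, 8821 and 11173 in ATP-depleted cells and 5806, 3210 and 2190 in refolded RNA. The fall was -1.20 (SE 0.19, limma adjusted p = 0.00588) against untreated cells and -1.04 (SE 0.19, adjusted p = 0.0114) against ATP-depleted cells. C309, C310 and C314 were unpaired in the predicted fold.

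The neighbours C309 and C310 followed C314. C309 fell from 6541 ± 2124 CPM in untreated cells to 1544 ± 1092 in refolded RNA, and C310 from 8593 ± 475 to 2277 ± 2238 (SD, n = 3 each). In the refolded libraries C309 had 1, 2 and 5 counts and C310 had 0, 3 and 9. The limma adjusted p against untreated cells were 0.0149 at C309 and 0.0231 at C310, calls lost under 3 and 6 of 18 alternatives. Against ATP-depleted cells they were 0.0121 and 0.0490, and those calls were lost under 1 and 13 of 18 alternatives. Over the pooled counts, C310 was at 0.189 times its untreated level (95% interval 0.0960 to 0.337) and C309 at 0.154 times (0.0652 to 0.310).

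C299 was almost without counts after refolding. It had 96, 12 and 65 counts in untreated cells and 1, 1 and 0 in refolded RNA, a ratio of 0.0364 (95% interval 0.00437 to 0.133). Its change of -1.37 (SE 0.31, limma adjusted p = 0.0213) against untreated cells was the largest fall in Kdm2a on this scale. That call was lost under 6 of 18 alternatives, counts thinned to equal depth among them. Against ATP-depleted cells the difference was -0.99 and did not pass the test (adjusted p = 0.0661). C201 fell against ATP-depleted cells (-0.85, adjusted p = 0.0451), with 2, 2 and 0 refolded counts against 79, 13 and 17, and the call was lost under 10 of 17 alternatives. It averaged 3539 CPM in untreated cells, 4248 in ATP-depleted cells and 844 in refolded RNA.

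Not every reactive nucleotide passed the test. A287 and A244 were next in mean CPM in Kdm2a, both unpaired in the predicted fold. A287 averaged 31228 ± 13206 CPM in untreated cells and 33977 ± 18190 in refolded RNA, and A244 averaged 29801 ± 9221 and 39671 ± 13202 (SD, n = 3 each). Neither difference passed limma's test (adjusted p = 0.967 and 0.347), and the samples of both groups overlapped. Neither passed against ATP-depleted cells (limma adjusted p = 0.908 and 0.115), although the A244 samples did not overlap there. The SE were 0.43 at A287 and 0.25 at A244, so the lack of a call does not show a lack of change.

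**Figure D1:**
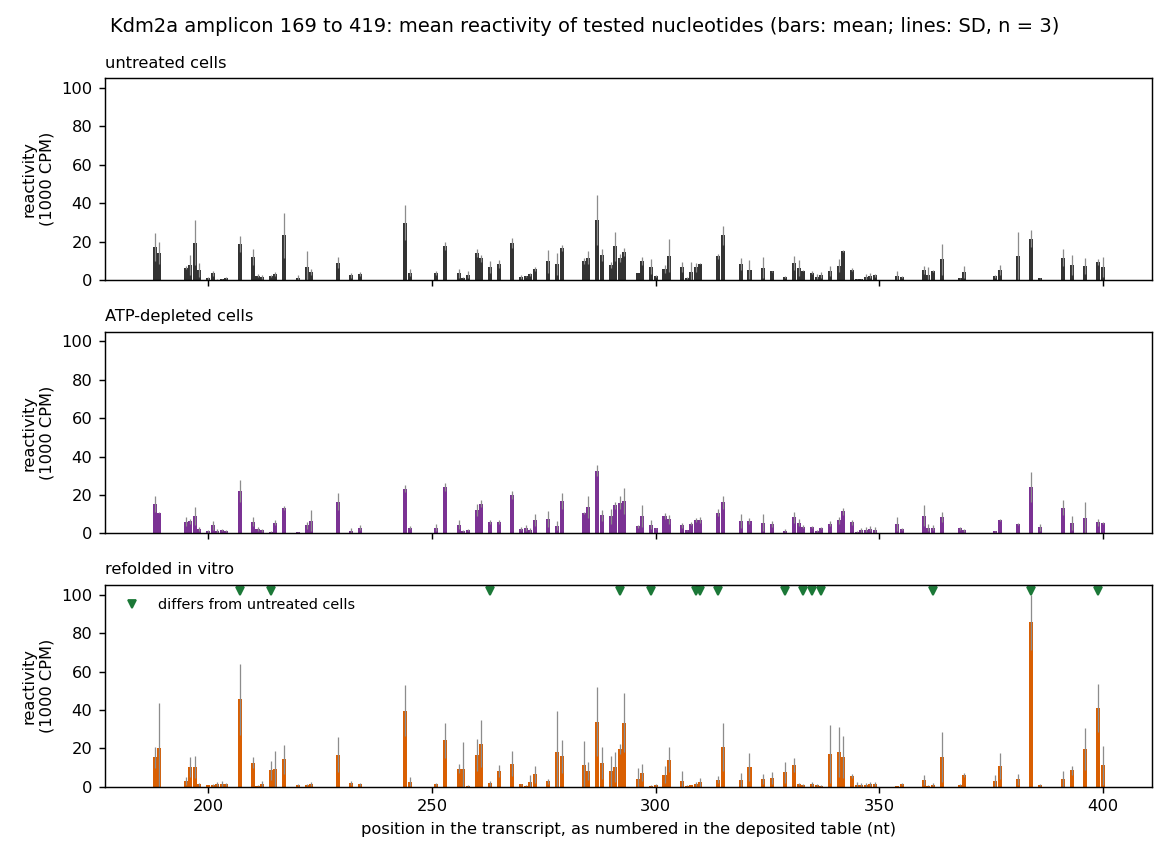
Reactivity (1000 CPM) along Kdm2a amplicon 169 to 419 by position in the transcript, for the A and C of untreated cells, ATP-depleted cells and refolded RNA; bars are means, lines SD (n = 3), and triangles mark the 15 nucleotides that differed between refolded RNA and untreated cells. The tallest refolded bar is at position 384, with 85582 CPM against 21564 in untreated cells.

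Downstream, in the overlap of Kdm2a 538 to 788 and 638 to 888, falls were read in both amplicons. The overlap gave 51 A and C positions a reading in each, from the same RNA samples with different primers. C662, C683 and C743 were lower in refolded RNA than in untreated cells in both readings, and 3 further positions were called in one reading with the same sign in the other. Among these, C733 fell by 0.74 in amplicon 538 to 788 (limma adjusted p = 0.00568). Its second reading did not show the fall (-0.03, adjusted p = 0.919). C683 averaged 6662 CPM in untreated cells, 6323 in ATP-depleted cells and 2807 in refolded RNA in amplicon 538 to 788, and 5018, 6260 and 2974 CPM in amplicon 638 to 888. Its changes against untreated cells were -0.73 and -0.41 (limma adjusted p = 0.0118 and 0.0485).

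C684, beside it, read 4128, 5874 and 4168 CPM in untreated cells and 1768, 852 and 1755 in refolded RNA in amplicon 538 to 788. The fall of -0.77 passed the test there (adjusted p = 0.0165), and the same value of -0.77 in amplicon 638 to 888 did not (adjusted p = 0.061). C662 fell by 0.68 in both readings (adjusted p = 0.00627 and 0.0498). C743 fell by 0.55 and 0.47 on the log2 scale (adjusted p = 0.0305 and 0.0306). Across the 51 positions, the changes in the 2 readings correlated at a Pearson r of 0.611 and a Spearman rho of 0.448, given as a description since both readings share their RNA.

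In Jmjd1c a smaller share of readings was called. Against untreated cells 21 of 390 readings differed (5.38%), 11 higher and 10 lower in refolded RNA, or 9 and 12 with each amplicon divided by its mean. Against ATP-depleted cells 25 differed (6.41%), 18 higher and 7 lower, or 16 and 10 after the same division. Both shares were below those of the whole table, 16.3% and 14.9%. All called readings had non-overlapping samples, as did all called readings of the table. Of 15 C called against ATP-depleted cells, 12 were higher and 3 lower. In Kdm2a 7 C were higher and 14 lower, and over all amplicons 656 and 838 of 9342. That contrast between the genes was not tested.

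These Jmjd1c counts depended on single libraries. Without refolded replicate 3 they rose to 34 and 38, and without untreated replicate 2 the first fell to 6. Without ATP-depleted replicate 2 they fell to 10 and 6. The first was also low without untreated replicate 1 (11), untreated replicate 3 (10) and refolded replicate 2 (13), and the second without ATP-depleted replicates 1 (10) and 3 (12). The deepest Jmjd1c amplicon, 154 to 404, had 6 of 97 readings called in each comparison (6.19%). The calls against untreated cells were 7 of 89 in 292 to 542, 5 of 102 in 557 to 807 and 3 of 102 in 591 to 841. Against ATP-depleted cells they were 11, 6 and 2. The amplicon 591 to 841 ranked 157 of 161 by the share called against untreated cells.

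In Jmjd1c, A371 rose in both amplicons that read it. In amplicon 154 to 404 it read 5052, 5750 and 7484 CPM in untreated cells, 8980, 4427 and 5303 in ATP-depleted cells and 11492, 15074 and 13161 in refolded RNA. In amplicon 292 to 542 the readings were 6417, 3957 and 4685, then 2217, 3696 and 2577, and 8441, 8617 and 7716 in refolded RNA. Every refolded reading was above every in-cell reading of its amplicon. A371 was paired in the fold predicted for amplicon 154 to 404 and unpaired in that for 292 to 542. The changes against untreated cells were 0.83 (SE 0.19, limma adjusted p = 0.0229) and 0.49 (SE 0.14, adjusted p = 0.0481). Against ATP-depleted cells the changes at A371 were 0.83 (adjusted p = 0.0237) and 0.93 (adjusted p = 0.00478).

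C360, 11 positions upstream, rose with A371, and its reading in amplicon 154 to 404 also drops out when the ends are left off. In amplicon 154 to 404 it averaged 6242 CPM in untreated cells, 4895 in ATP-depleted cells and 11323 in refolded RNA, and both changes passed (0.64 and 0.84; limma adjusted p = 0.0357 and 0.0144). In amplicon 292 to 542 it averaged 4404, 2322 and 8196 CPM, which passed against ATP-depleted cells (1.06, adjusted p = 0.0108) and not against untreated cells (0.60, adjusted p = 0.0728). In the 26 positions read by both amplicons, A371 was the one position called in both against untreated cells, and 2 more were called once with the same sign in the other reading.

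Between positions 453 and 468, rises and falls were interleaved. C461 rose from 4323 ± 866 CPM in untreated cells and 2371 ± 748 in ATP-depleted cells to 9865 ± 2130 in refolded RNA (SD, n = 3 each). Its changes were 0.79 (SE 0.16, limma adjusted p = 0.0138) and 1.23 (SE 0.16, adjusted p = 0.00273). C463 read 6077, 4652 and 5309 CPM in untreated cells, 2799, 2813 and 4275 in ATP-depleted cells and 23899, 13583 and 7628 in refolded RNA. It passed against ATP-depleted cells (1.40, adjusted p = 0.0165) and narrowly missed against untreated cells (1.00, adjusted p = 0.0513).

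A455, 6 positions before C461, showed the largest fall of Jmjd1c on the log2(CPM + 3197) scale. It read 10355, 8397 and 9265 CPM in untreated cells, 10770, 8643 and 11915 in ATP-depleted cells and 305, 3067 and 4046 in refolded RNA. The lowest of these values came from 1 count. The fall was -1.21 (SE 0.25, limma adjusted p = 0.0157) against untreated cells and -1.33 (SE 0.25, adjusted p = 0.0121) against ATP-depleted cells. On the deposited log2 values, without the added pseudocount, A455 no longer passed in either comparison.

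The adjacent A465 and A466 also fell. A465 went from 12889 ± 3520 CPM in untreated cells to 6966 ± 416 in refolded RNA, and A466 from 9421 ± 2082 to 3945 ± 2278 (SD, n = 3 each; limma adjusted p = 0.0289 and 0.0411). Both were unpaired in the predicted fold, whereas A455 was paired there. The call at A466 was lost under 12 of 18 alternatives.

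**Figure D2:**
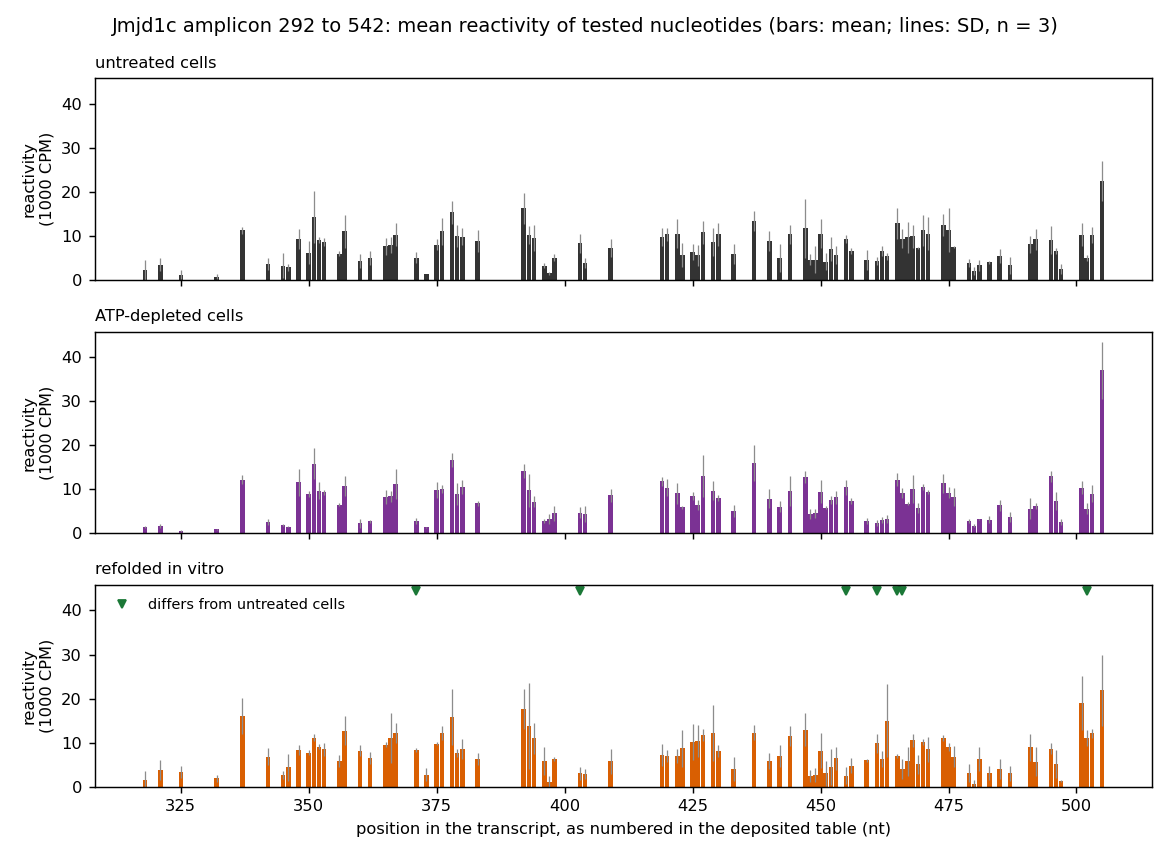
Reactivity (1000 CPM) along Jmjd1c amplicon 292 to 542 by position in the transcript, in the same layout, with bars for means, lines for SD (n = 3) and triangles for the 7 nucleotides that differed between refolded RNA and untreated cells. Triangles cluster between 455 and 466, and the tallest bar in each panel is at position 505.

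Elsewhere in Jmjd1c, A502 rose and C403 fell. A502 lies near the end of the stretch read and drops out when 25 positions are left off each end. A502 averaged 4957 ± 661 CPM in untreated cells, 5548 ± 1242 in ATP-depleted cells and 11062 ± 1892 in refolded RNA (SD, n = 3 each; limma adjusted p = 0.00865 and 0.015 for refolded RNA against each). C403 averaged 8318, 4700 and 3056 CPM, and passed against untreated cells alone (-0.89, adjusted p = 0.0274; against ATP-depleted cells -0.35, adjusted p = 0.312).

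Further along, in amplicon 557 to 807, C727 rose and C600 and C665 fell. C727 averaged 8441 ± 839 CPM in untreated cells and 17489 ± 5735 in refolded RNA (SD, n = 3 each; 0.79, limma adjusted p = 0.033), a call lost under 10 of 18 alternatives. The overlapping amplicon 591 to 841 did not show this rise: there C727 averaged 10316 CPM in untreated cells and 10617 in refolded RNA (0.02, adjusted p = 0.951). C665 averaged 4291 ± 324 and 1785 ± 181 CPM in amplicon 557 to 807 (-0.59, SE 0.10, adjusted p = 0.0073), and its second reading differed by -0.47 without passing (adjusted p = 0.214).

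C600, outside the overlap, averaged 3004 CPM in untreated cells and 617 in refolded RNA, where it had 2, 1 and 6 counts (-0.70, adjusted p = 0.0258). Over the 83 positions that amplicons 557 to 807 and 591 to 841 both read, none was called in both against untreated cells, and 6 were called in one, 5 of them with the same sign in the other. The changes in the 2 readings correlated at a Pearson r of 0.413, as a description, against 0.544 over the 26 positions further upstream.

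The most reactive Jmjd1c nucleotides did not pass the test. C505, the last position read in amplicon 292 to 542, averaged 22473 ± 4460 CPM in untreated cells, 36992 ± 6547 in ATP-depleted cells and 21880 ± 8010 in refolded RNA (SD, n = 3 each). A378 and C206 averaged 22846 and 18408 CPM in untreated cells and 23605 and 20213 CPM in refolded RNA.

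**Figure D3:**
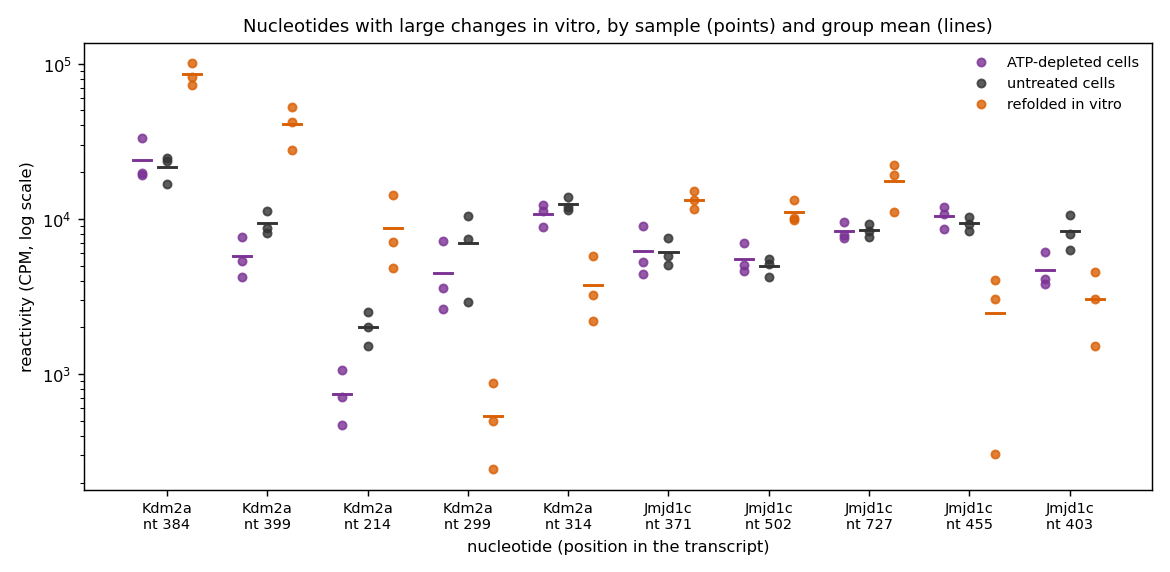
Reactivity (CPM, log axis) of 5 Kdm2a and 5 Jmjd1c nucleotides by sample (points) and group mean (lines). Refolded samples of Kdm2a nt 384 lie between 73251 and 101016 CPM, above all in-cell samples, and those of nt 314 lie below them.

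AUG triplets were looked at through the reactivity of their A; the coding start was not located here, so which of them lie upstream of it is not known (motif ATG on the sequenced strand; amplicons do not give the other strand). Kdm2a had 1 in the stretches read, at A827, which averaged 3830 ± 431 CPM in untreated cells and 3600 ± 1596 in refolded RNA (SD, n = 3 each; limma adjusted p = 0.817). No in-frame stop followed it within the stretch read. Jmjd1c had 8, at positions 216, 353, 380, 437, 471, 476, 776 and 798. The AUG at 353, in the stretch that holds C360 and A371, fell in amplicon 154 to 404, from 11738 ± 688 CPM in untreated cells to 7412 ± 1167 (SD, n = 3 each; -0.50, adjusted p = 0.0313). The second reading of the same A did not show it, with 8615 CPM in untreated cells and 8535 in refolded RNA (-0.01, adjusted p = 0.948). None of the other 7 passed against either in-cell group.

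The profile of an amplicon can also be described by its Gini coefficient, which is 0 when all A and C have equal signal and nears 1 when a few hold it all. Refolded RNA was more uneven in all 3 Kdm2a amplicons and in 2 of 4 Jmjd1c amplicons, against both in-cell groups. Over the table, limma called 80.1% of amplicons higher and 1.86% lower against untreated cells, and 78.9% higher and 1.86% lower against ATP-depleted cells. The 5 of 7 called here are near those shares.

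Kdm2a 169 to 419 had the largest Gini change of the 7. Its values were 0.4997, 0.469 and 0.491 in untreated cells, 0.483, 0.462 and 0.463 in ATP-depleted cells and 0.672, 0.659 and 0.617 in refolded RNA. The refolded samples lay above all in-cell samples. The difference of 0.163 (SE 0.0158, limma adjusted p = 5.95e-05) from untreated cells ranked 11 of 161, and that of 0.179 (adjusted p = 4.02e-05) from ATP-depleted cells ranked 7. The refolded libraries were also the shallowest; with counts thinned to equal depth the differences were 0.162 and 0.183, and both still passed.

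The other Kdm2a amplicons changed less. Amplicon 538 to 788 went from 0.290 ± 0.0195 in untreated cells to 0.339 ± 0.0171 in refolded RNA, and 638 to 888 from 0.263 ± 0.0127 to 0.318 ± 0.00995 (SD, n = 3 each; limma adjusted p = 0.0102 and 0.00393). They ranked 133 and 129 of 161, below the median difference of 0.0923. With A alone, neither passed against untreated cells.

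In Jmjd1c the amplicons split by position. The downstream amplicons rose: 557 to 807 from 0.265 ± 0.0519 to 0.379 ± 0.0499, and 591 to 841 from 0.256 ± 0.0422 to 0.330 ± 0.0403 (SD, n = 3 each; adjusted p by limma 0.0145 and 0.0399). The first was lost without untreated replicate 2 (adjusted p = 0.0512). The second was lost under 8 of 17 alternatives, counts thinned to equal depth among them. Its refolded samples (0.290 to 0.371) overlapped its untreated samples (0.213 to 0.298). The upstream amplicons did not pass. Amplicon 154 to 404 had 0.398 ± 0.0110 in untreated cells, 0.406 ± 0.0154 in ATP-depleted cells and 0.409 ± 0.0244 in refolded RNA (SD, n = 3 each; adjusted p = 0.498 for refolded RNA against untreated cells). Amplicon 292 to 542 had 0.302, 0.336 and 0.331 (adjusted p = 0.316). Their differences from untreated cells ranked 149 and 143 of 161.

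**Figure D4:**
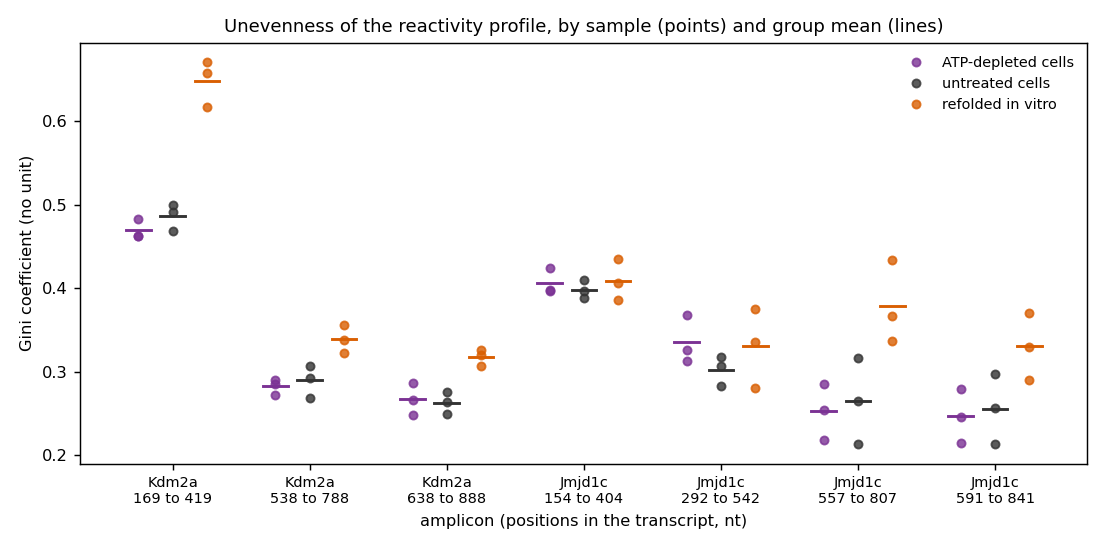
Gini coefficient of A and C reactivity for the 3 Kdm2a and 4 Jmjd1c amplicons, by sample (points) and group mean (lines). In Kdm2a 169 to 419 the refolded samples lie between 0.617 and 0.672 and the in-cell samples between 0.462 and 0.4997.

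The balance between C and A was taken as the log2 ratio of their summed CPM. Among the 7, a lower ratio in refolded RNA passed the test in Kdm2a 638 to 888 alone, at -1.86 ± 0.0760 against -1.59 ± 0.170 in untreated cells and -1.56 ± 0.0165 in ATP-depleted cells (SD, n = 3 each). The differences were -0.27 (SE 0.08, limma adjusted p = 0.0335) and -0.31 (SE 0.08, adjusted p = 0.0231), and the samples did not overlap. Of all amplicons, 36.6% were lower and 1.24% higher against untreated cells, and 29.8% and 1.86% against ATP-depleted cells. The call was fragile: it was lost under 9 of 14 alternatives against untreated cells and 6 of 14 against ATP-depleted cells. Without passing, the difference from untreated cells was -0.04 in Kdm2a 169 to 419, -0.13 in Kdm2a 538 to 788, -0.22 in Jmjd1c 557 to 807 and -0.16 in 591 to 841, and 0.07 and 0.13 in Jmjd1c 154 to 404 and 292 to 542.

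Whether reactivity followed the structure predicted from sequence was measured by the AUC, the chance that an unpaired A or C has more signal than a paired one, with 0.5 for no separation. Kdm2a 169 to 419 followed its prediction less after refolding. The AUC was 0.748, 0.763 and 0.764 in untreated cells, 0.761, 0.784 and 0.772 in ATP-depleted cells and 0.626, 0.647 and 0.691 in refolded RNA. The refolded samples lay below all in-cell samples. The differences were -0.103 (SE 0.0168, limma adjusted p = 0.00247) and -0.117 (SE 0.0168, adjusted p = 0.00103), each ranking 158 of 161. Counts thinned to equal depth gave -0.0918 and -0.106, and both passed.

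Over the table, 11.8% of amplicons had a lower and 12.4% a higher AUC against untreated cells, and 15.5% and 9.32% against ATP-depleted cells. In this amplicon the rises at C384, C399, C214 and C329 fell on nucleotides paired in the prediction, and the falls at C309, C310 and C314 on unpaired ones, while C299 and C201, which also fell, were paired.

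Jmjd1c 292 to 542 moved the other way, from 0.508 ± 0.0213 in ATP-depleted cells to 0.618 ± 0.0305 in refolded RNA (SD, n = 3 each; 0.111, SE 0.0239, limma adjusted p = 0.00872). Untreated cells had 0.603, 0.537 and 0.520, and the difference from them of 0.0651 did not pass (adjusted p = 0.0827). With the fold of the joined read stretches in place of the amplicon's own, the difference from ATP-depleted cells was 0.0201 (adjusted p = 0.254). The other 5 amplicons passed in neither comparison. Their AUC in untreated cells ran from 0.548 in Kdm2a 538 to 788 to 0.823 in Jmjd1c 154 to 404, against a median of 0.686.

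**Figure D5:**
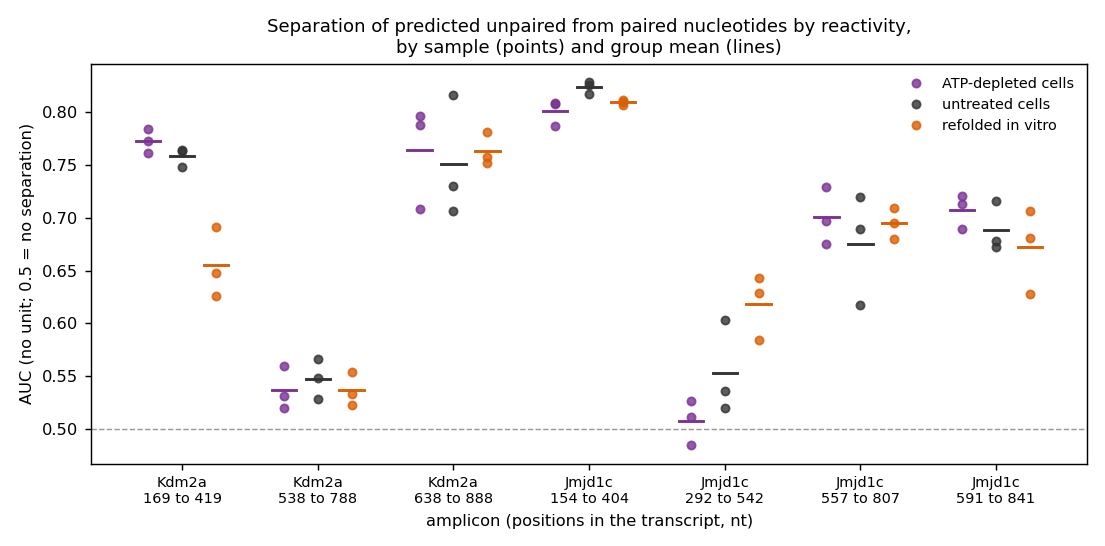
AUC with which reactivity separated predicted unpaired from paired A and C in the 7 amplicons, by sample (points) and group mean (lines); the dashed line marks no separation, 0.5. The refolded samples of Kdm2a 169 to 419 lie at 0.626 to 0.691, below all 6 in-cell samples.

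ATP depletion left no called difference in either gene. limma called 0 of 297 Kdm2a and 0 of 390 Jmjd1c readings between ATP-depleted and untreated cells, and 0% of the table, the smallest adjusted p being 0.999943. At an unadjusted p under 0.05 there were 7 of 297 in Kdm2a and 11 of 390 in Jmjd1c, beside 636 of 16178 in the whole table. The median absolute change was 0.10 in Kdm2a and 0.11 in Jmjd1c on the log2 scale, against 0.22 and 0.23 between refolded RNA and untreated cells, and 0.11 over the table. No Gini coefficient or C to A ratio passed for any of the 7 amplicons, or for any amplicon of the table (0%). No AUC of the 7 passed either, where 0.621% of the table did. A median SE of 0.17 in Kdm2a and 0.20 in Jmjd1c sets what 3 samples a group could show.

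The smallest p of Kdm2a were at C368 and C210. C368 averaged 2700 ± 853 CPM in ATP-depleted cells and 964 ± 215 in untreated cells, and C210 6183 ± 2103 and 12062 ± 4199 (SD, n = 3 each). Their unadjusted limma p were 0.00721 and 0.0198, and the samples of C368 rested on 4 to 21 counts.

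In Jmjd1c the smallest p lay at A462 and A371 of amplicon 292 to 542, both within stretches printed above. A462 read 2485, 2857 and 3850 CPM in ATP-depleted cells and 7843, 5386 and 6558 in untreated cells, without overlap. A371 averaged 2830 ± 771 and 5020 ± 1264 CPM (SD, n = 3 each), and its reading in amplicon 154 to 404 gave 6237 and 6096 CPM. Of the 11 Jmjd1c readings with an unadjusted p under 0.05, 8 were in amplicon 292 to 542. None of the 11 passed after adjustment.

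Replicates of the same group set how far such profiles can be read. In Jmjd1c 154 to 404, the Pearson correlation between A and C profiles averaged 0.960 among untreated samples, 0.972 among ATP-depleted samples and 0.843 among refolded samples. In Kdm2a 169 to 419 these were 0.755, 0.814 and 0.694, and in Jmjd1c 292 to 542 they were 0.732, 0.914 and 0.697, each given as a description over 3 pairs. The medians over all amplicons were 0.874, 0.917 and 0.849. Kdm2a 169 to 419 and Jmjd1c 292 to 542, 557 to 807 and 591 to 841 were below these medians in all 3 groups.

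Among other chromatin genes, 26 histone methyltransferases and Polycomb subunits were looked for and Eed alone was in the table. Eed, a Polycomb subunit that binds methylated histone H3, had 37 of 187 readings called between refolded RNA and untreated cells (19.8%), 9 higher and 28 lower, where 16.3% of the table was called. Both its amplicons had a higher Gini coefficient, as did 80.1% of all amplicons. Against ATP-depleted cells 15.5% of its readings were called, and 14.9% of the table.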

How the data were processed

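DMS mutational profiling of 9 samples was analysed from 1 deposited table of nucleotides by samples. Per the submitters' processing notes, the tools were bcl2fastq, Bowtie2 and limma; the sources used here give no version, mutation counter or genome build. The authors deposited log2 values, with no unit stated. They equalled log2 of (a whole number + 0.5) per library size × 1000000 for 100% of values in 1449 of 1449 libraries (tolerance 0.0001), so whole mutation counts were recovered from the log2 CPM that the authors deposited; that they are mutation counts is taken from the assay. Coverage is unknown and no mutation rate was computed. The plan assumed linear values, so 2 was raised to each deposited value before the planned test.

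limma 3.58.1 (R 4.3.3) fitted a mean per group over all 9 samples, for each A and C on log2(CPM + 3197), the pseudocount being 0.5 times the pooled median, and for each amplicon on the Gini coefficient (at least 10 A and C), the log2 C to A ratio and the AUC (at least 5 paired and 5 unpaired). Tests were two-sided, with Benjamini-Hochberg adjustment over the whole table and a threshold of 0.05. Structures were minimum free energy folds by ViennaRNA 2.7.2 at 37 °C, of the stretch read. The code was tested on simulated counts. Other tools were Python 3.11.15, pandas 2.3.3, numpy 2.4.6, scipy 1.17.1 and matplotlib 3.10.9. Symbols for 68 of 69 transcripts came from RefSeq. Counting intervals are exact binomial ones at 95%.

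Groups came from sample titles. Named nucleotides were the 4 largest called rises and falls per gene without overlap between groups in each comparison with refolded RNA, the 2 smallest p for ATP depletion and the 3 highest means; readings in the Kdm2a overlap, C684 among them, were named after their values were seen. Members and lists were chosen with earlier results of these data known. Alternatives covered pseudocounts, the deposited log2 scale, a 1000 CPM filter, scaling, amplicon ends, bases, folds, the 6 compared samples, a replicate block and each replicate left out; thinning to equal depth and a minimum of 5000 counts per library were added after seeing the data.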

Additional observations from a re-analysis of the deposited data

Results flagged for a closer look

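The tests used A and C alone, and signal was also present on the other bases. In untreated cells the median U was 3738 CPM in Kdm2a and 3502 CPM in Jmjd1c, and the median G of Kdm2a was 899 CPM. These lie above the level that 3 counts would give in the shallowest untreated library, 814 CPM for Kdm2a and 923 CPM for Jmjd1c, whereas the median G of Jmjd1c, 798 CPM, did not. In refolded RNA the median U was 3217 CPM in Kdm2a and 2962 CPM in Jmjd1c. Samples without DMS were not analysed here, and the source of this signal was not tested. Groups of 3 are too small for a test of single outlying samples.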

How the results depend on the processing

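Of 47 single results named in the text, 16 passed under every alternative run for them, 31 were lost under at least 1, and 0 reversed direction. C384, C399 and C314 of Kdm2a and the Gini and AUC changes of Kdm2a 169 to 419 were among those kept. For C384 and C399 these alternatives did not include leaving off the amplicon ends. The causes of the losses were not tested. Other calls given in the text were not followed one by one through the alternatives. Among these are C662, C683, C684, C733 and C743 of Kdm2a. In Jmjd1c they include C360 in amplicon 154 to 404, the AUG call, and A465 and C665 against untreated cells. Counts of called nucleotides against untreated cells were 29 in Kdm2a and 21 in Jmjd1c, and 24 and 25 against ATP-depleted cells. With the 6 compared samples alone, they were 13 and 6 against untreated cells and 16 for Jmjd1c against ATP-depleted cells. Among alternatives added later, amplicons with 5000 counts in every library left 97 Jmjd1c readings and gave 8 calls in each comparison, and thinning gave Jmjd1c 11 and 16. With 1 sample left out, counts ranged from 16 to 27 in Kdm2a and 6 to 34 in Jmjd1c against untreated cells, and from 9 to 26 and 6 to 38 against ATP-depleted cells. Between ATP-depleted and untreated cells the count of called nucleotides was 0 in both genes under every alternative run. With 1 sample left out, the counts moved far without refolded replicate 3 (Jmjd1c, 34 and 38), ATP-depleted replicate 2 (9 and 6 against ATP-depleted cells) and untreated replicate 2 (Jmjd1c, 6).

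Of the 7 amplicons, 5 changed in Gini coefficient against untreated cells, 2 with A alone and 3 to 6 with 1 sample left out; against ATP-depleted cells 5 changed, and 4 to 5 with 1 sample left out. For the C to A ratio, called in 1 amplicon in each comparison, the 6 compared samples gave 0 and 3, medians 2 and 4 (and 1 for ATP depletion), amplicons without their ends 2 and 3, and leaving out 1 sample 0 to 2 in both. The AUC was called in 1 amplicon against untreated cells, in 2 with the joined fold or with pairing probabilities, and in 1 to 2 with 1 sample left out. Against ATP-depleted cells it was 2, also with any 1 sample left out.

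With the replicate block, Jmjd1c had 16 calls against ATP-depleted cells and the C to A ratio 2, and Kdm2a had 23 and 19 calls. The replicate numbers are not known to pair samples: over the whole table, correlations of same-numbered deviations ran from -0.018 to 0.09996, none over 0.1. There each sample correlated best with its own number between ATP-depleted and untreated cells, a hint from the data that the Kdm2a and Jmjd1c readings did not share, where replicates 1 and 2 had -0.035 and -0.083 with their own number.

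Depth limited Kdm2a 169 to 419 most, where several falls rest on under 10 refolded counts.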
